A study of Rattus with 108 samples.

Results

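Myod1 and Myog encode MyoD and myogenin, transcription factors of the basic helix-loop-helix type that bind DNA with E protein partners and turn on genes of skeletal muscle. In mammals MyoD marks the committed myoblast, the cell that arises when a satellite cell, the stem cell of muscle, is activated by injury. Myogenin comes on later and drives myoblasts to leave the cell cycle, fuse and form fibres, and it is also known to rise in muscle fibres that have lost their nerve.

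The genes are the rows ENSRNOG00000011306 (Myod1) and ENSRNOG00000030743 (Myog) of rat count tables that hold 32623 genes, so 2 of 32623 are described. The names come from the rule that listed them, because neither the tables nor the reference used here pair these IDs with symbols. They were selected on measured values: a row was kept if its mean level over muscle libraries of the chronic model was at least 8 times that over skin libraries of the same model. Levels are CPM, a gene's counts scaled to the same total in every library. Mean Myod1 was 28.2 CPM in that muscle and 0 counts were found in that skin, a ratio of at least 5525 against a floor of 3 counts over the group. Mean Myog was 91.9 CPM against 0.0694 CPM, a ratio of 1325. Both rows passed, far above the limit, and no test is given for that contrast.

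Rats had either a lateral paw incision (LPI), the study's acute model, or a skin/muscle incision and retraction (SMIR), its chronic model. Muscle, skin and dorsal root ganglia (DRG, the sensory neuron clusters beside the spinal cord) were taken at 0 day, 6 hours, 2 days and 10 days, and in SMIR also at 32 days. There were 4 libraries for each of 27 groups, 108 in all, of which 16 were LPI muscle and 20 SMIR muscle. The labels state no strain, sex, age or muscle, and 0 day is the only reference group of each model. Replicates are numbered in the labels but pools of RNA are mentioned in the protocol, so p values measure a spread that may lie between rats or between pools. Libraries are named by the number in the column name, which was read as a rat number and does not always match the replicate number. The column code 1 was taken as 6 hours by elimination. Muscle libraries held 21792696 to 41654479 counts.

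Some muscle libraries stood apart before either gene was considered. A list of 106 muscle-enriched genes was taken from the 0 day libraries (at least 5 CPM and 8 times each other tissue in both models), and its summed share of counts without Myod1 and Myog was used as a gauge of muscle in a library. That share was 0.0809% in rat 1 of LPI 0 day and 2.52% to 7.77% in the other 3 rats of that group. Changes of Myod1 and Myog from LPI 0 day are therefore given with and without rat 1. A matching list of 491 skin-enriched genes took 0.0826% to 0.135% of counts in LPI muscle at 0 day. It took 4.33%, 6.13%, 0.241% and 5.93% in the 4 LPI muscle libraries of 2 days, 4.44% in rat 3 of 6 hours and 5.05% in rat 4 of 10 days. Among the DRG libraries, rat 4 of SMIR 0 day stood apart with 3.37% of its counts in muscle-enriched genes. In such bulk samples fewer cells of a type and less RNA per cell cannot be told apart.

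In SMIR muscle both genes were raised at 6 hours, Myog more than Myod1, and Myog was still above 0 day at 2 days. Myod1 stood at 22.8, 13.5, 16.2 and 12.1 CPM in the 4 libraries of 0 day, and at 46.3, 67.8, 28.9 and 59.6 CPM in those of 6 hours. The lowest library of 6 hours lay above the highest of 0 day. For Myog the libraries of 0 day held 20.7, 22.9, 32.1 and 20.3 CPM, and those of 6 hours 212, 184, 233 and 208 CPM. The Myog groups were far apart, with a mean of 24.02 ± 5.54 CPM at 0 day and 209 ± 20.2 CPM at 6 hours (SD, n = 4).

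With the spread estimated over all SMIR muscle libraries and TMM scaling, which sets the bulk of genes equal between libraries, Myod1 rose by 1.52 ± 0.53 on the log2 scale (SE, adjusted p = 0.0364) and Myog by 3.05 ± 0.52 (adjusted p = 2.90e-04). These and the later adjusted p values are from edgeR's quasi-likelihood test with Benjamini-Hochberg adjustment over all genes tested, and the threshold was 0.05. That test gives no SE, so each SE was approximated as the absolute log2 change over the square root of the test's F value. Of all genes, 17.7% were called higher at 6 hours, so a call alone was common. The Myog change was above 94.4% of all genes and the Myod1 change above 86.5%. The Myog call was kept in each of the 8 fits that left out 1 library. The Myod1 call was lost in 5 of 8, namely without rats 2, 3 or 4 of 0 day (log2 changes 1.44, 1.52 and 1.38, adjusted p = 0.0868, 0.0747 and 0.0961) and without rats 1 or 2 of 6 hours (1.43 and 1.34, adjusted p = 0.067 and 0.0922).

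**Figure D1:**
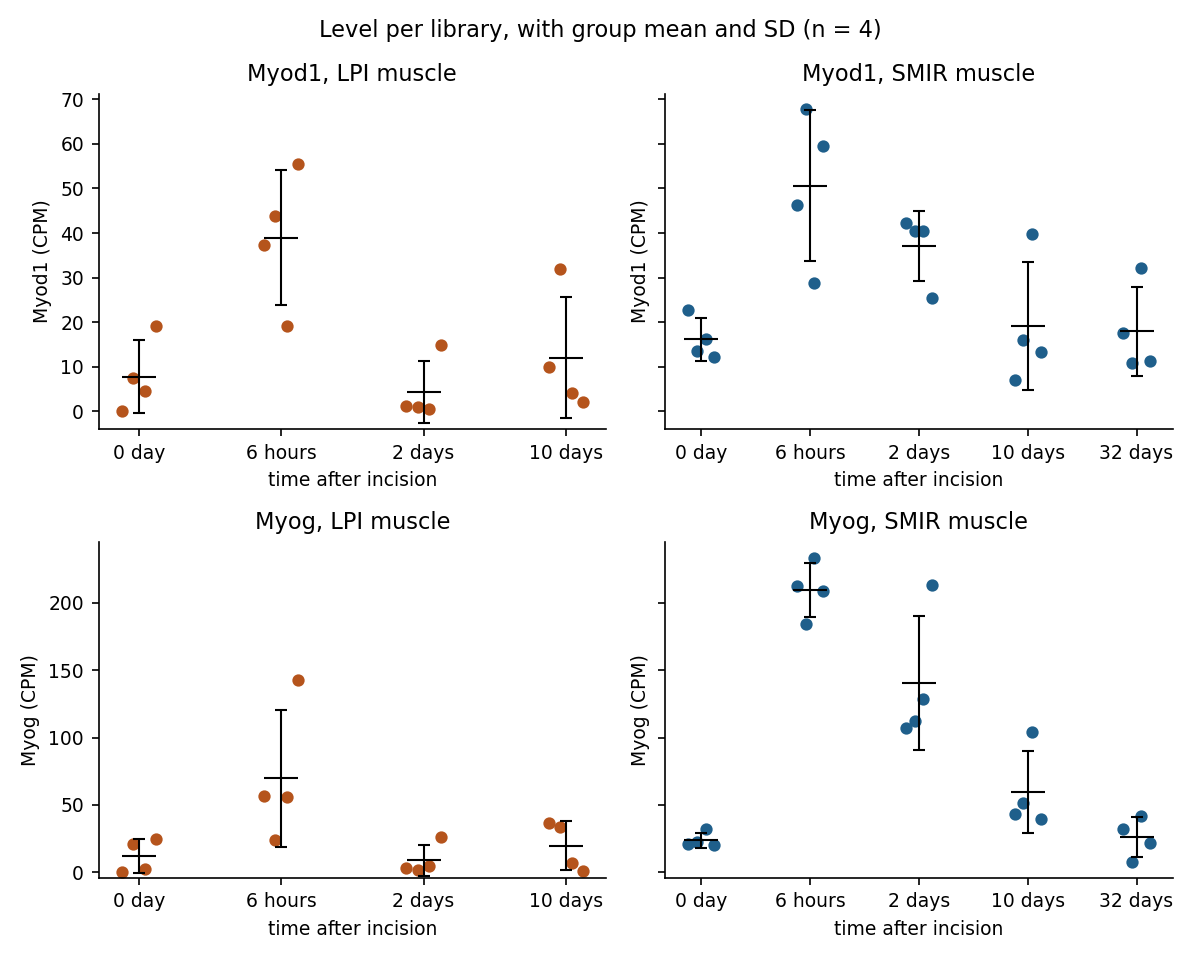
Level of Myod1 and Myog (CPM, linear axis) in each muscle library by time after incision, LPI left and SMIR right; points are libraries, bars the group mean and SD (n = 4). All 4 SMIR libraries of 6 hours held 184 CPM of Myog or more, against at most 32.1 CPM at 0 day, while the LPI libraries of 6 hours ranged from 24.2 to 143 CPM.

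At 2 days SMIR muscle held 42.2, 40.6, 40.4 and 25.5 CPM of Myod1 and 107, 112, 129 and 213 CPM of Myog. The library of rat 6 had the lowest Myod1 and the highest Myog of the group. Every library of 2 days lay above every library of 0 day in both genes, on the CPM scale. Relative to the bulk of genes, Myog was raised at 2 days by a log2 change of 1.55 ± 0.49 (adjusted p = 0.0157), where 25.1% of all genes were called higher, while Myod1 had a change of 0.23 ± 0.52 (adjusted p = 0.738). The scaling mattered here. TMM factors were 0.70 to 0.79 in the libraries of 0 day and 1.33 to 1.64 in those of 2 days. With libraries scaled by total counts alone, the median gene moved by 1.07, Myod1 by 1.20 ± 0.45 (adjusted p = 0.0290) and Myog by 2.55 ± 0.42 (adjusted p = 1.63e-04). The higher Myod1 share of counts at 2 days was thus close to the shift of the median gene, and Myog lay above it.

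At 10 days the SMIR libraries ranged widely, with 7.17, 16.1, 39.9 and 13.2 CPM of Myod1 and 43.2, 51.5, 104 and 39.5 CPM of Myog. Rat 5 was highest in both genes, and all 4 libraries were above the 0 day libraries in Myog only. Against 0 day the log2 change was -0.50 ± 0.52 for Myod1 (adjusted p = 0.459) and 0.56 ± 0.48 for Myog (adjusted p = 0.360), at a time when 43.1% of all genes were called. Total-count scaling turned the sign of Myod1 (0.24 ± 0.45, adjusted p = 0.655) and gave a call for Myog (1.31 ± 0.40, adjusted p = 0.0129), with the median gene at 0.91.

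At 32 days, the latest time, the libraries held 17.5, 10.95, 32.1 and 11.3 CPM of Myod1 and 32.5, 7.94, 42.1 and 22.0 CPM of Myog. Both ranges spanned that of 0 day. The log2 change from 0 day was -0.00 ± 0.52 for Myod1 (adjusted p = 1.00) and 0.04 ± 0.48 for Myog (adjusted p = 0.983), and 0.0848% of all genes were called. Rat 3, lowest in both genes, also had a lower muscle-enriched share than the other 3 (2.61%, against up to 9.34%). A p value above the threshold does not show that levels had returned to those of 0 day.

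Ordered by mean CPM, SMIR muscle ran from 6 hours to 2 days, 10 days, 32 days and 0 day in both genes. Between neighbours in that order, the step from 6 hours to 2 days passed the test for Myog (log2 change -1.50 ± 0.49, adjusted p = 0.0236) and not for Myod1 (-1.29 ± 0.53, adjusted p = 0.0622), with 18.5% of all genes called lower. That Myog call was lost in 5 of 8 fits with 1 library left out: without rats 1 or 3 of 6 hours (-1.35 and -1.43, adjusted p = 0.0616 and 0.0501) and without rats 1, 3 or 4 of 2 days (-1.38, -1.44 and -1.49, adjusted p = 0.0679, 0.0551 and 0.052). It was also lost with total-count scaling (-0.58 ± 0.40, adjusted p = 0.238), where the median gene moved by 0.82. From 2 to 10 days the changes were -0.73 ± 0.52 for Myod1 (adjusted p = 0.434) and -0.98 ± 0.49 for Myog (adjusted p = 0.238), against 6.48% of genes called. From 10 to 32 days they were 0.50 ± 0.52 (adjusted p = 0.492) and -0.53 ± 0.48 (adjusted p = 0.429), against 27.4% of genes called; total-count scaling made the Myog fall a call (-1.19 ± 0.40, adjusted p = 0.0458, median gene -0.45).

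**Figure D2:**
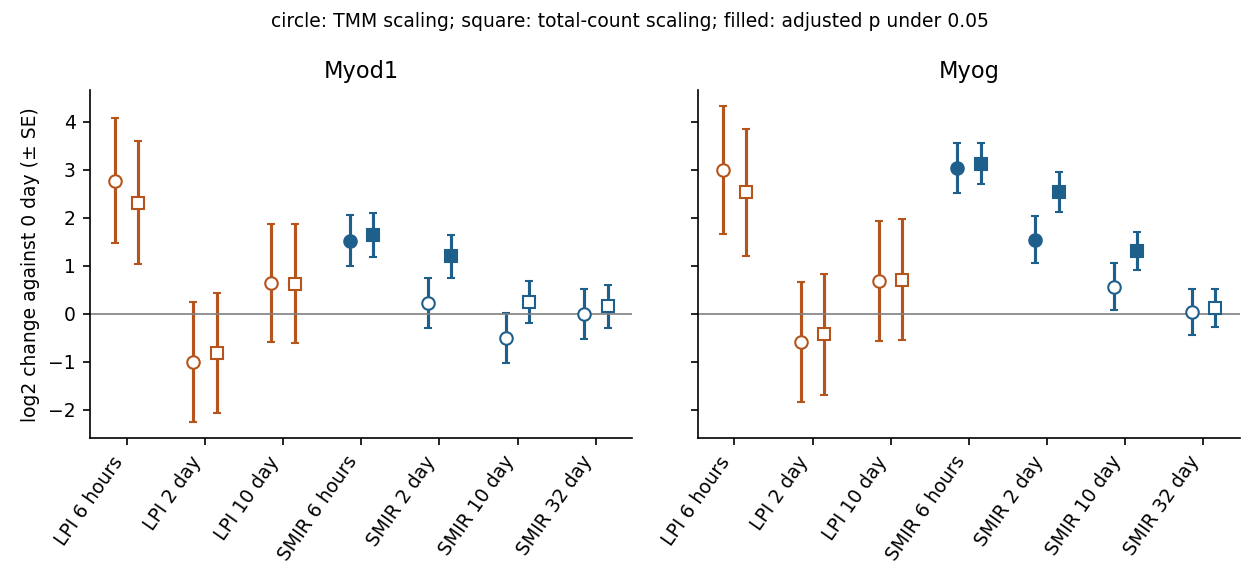
Log2 change against 0 day (vertical axis, ± SE) of Myod1 and Myog at each later time in LPI (orange) and SMIR (blue) muscle; circles use TMM scaling and squares total-count scaling, and filled symbols passed an adjusted p of 0.05. The SMIR changes at 2 and 10 days depend on the scaling (Myog 1.55 and 2.55 at 2 days), and the LPI changes carry standard errors of 1.24 to 1.33 with TMM scaling.

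In LPI muscle the mean levels of both genes at 6 hours were above those of 0 day, but the libraries of each group varied widely and neither gene passed the test. Myod1 stood at 0, 7.62, 4.57 and 19.1 CPM in rats 1 to 4 of 0 day and at 37.3, 43.8, 19.2 and 55.4 CPM in rats 2 to 5 of 6 hours. The Myod1 groups touched without overlapping, at 19.1 and 19.2 CPM. Myog stood at 0, 20.9, 2.80 and 24.7 CPM at 0 day and at 57.0, 24.2, 56.0 and 143 CPM at 6 hours, and here the highest library of 0 day exceeded the lowest of 6 hours. The log2 change was 2.78 ± 1.31 for Myod1 (adjusted p = 0.114) and 2.99 ± 1.33 for Myog (adjusted p = 0.0951), while 35.9% of all genes were called. Each change was larger than that of at least 95.5% of all genes. Without rat 1, which had 0 counts of both genes, the changes were 2.36 ± 1.17 (adjusted p = 0.148) and 2.57 ± 1.18 (adjusted p = 0.119). A fit with each library's gene-length trend as covariate made both changes calls (3.48 and 3.53, adjusted p = 0.0220 and 0.0417), as did limma on log2(FPKM + 1) (2.42 and 2.93, adjusted p = 0.0221 and 0.0337).

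At 2 days 3 of the 4 LPI libraries were low in both genes. Rats 1, 3, 4 and 5 held 1.29, 0.931, 0.529 and 14.9 CPM of Myod1 and 2.96, 2.11, 4.72 and 26.0 CPM of Myog, so rat 5 stood well above the rest. Against 0 day the log2 changes were -1.01 ± 1.25 for Myod1 (adjusted p = 0.538) and -0.58 ± 1.25 for Myog (adjusted p = 0.733), where 40.5% of all genes were called. Without rat 1 of 0 day Myod1 had a change of -1.43. Without rat 4 of 0 day the signs turned, to 0.01 and 0.12.

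From 6 hours to 2 days in LPI muscle, Myod1 fell by a log2 change of -3.79 ± 1.37 (adjusted p = 0.0487) and its libraries did not overlap; 17.5% of all genes were called lower. Myog had a change of -3.58 ± 1.37 (adjusted p = 0.0604), and the 26.0 CPM of rat 5 at 2 days exceeded the 24.2 CPM of rat 3 at 6 hours. Over the same step the muscle-enriched genes had a median log2 change of -5.24. Their share of counts was 1.11% to 4.62% at 6 hours and 0.0439% to 0.284% at 2 days. How far the changes of Myod1 and Myog went with less muscle in the libraries was not tested. Same-numbered libraries of these times deviated together, although by the series' count of rats they came from different animals. In a fit with the column number as block the Myod1 call was lost (-4.05, adjusted p = 0.125). It was also lost with total-count scaling (-3.14, adjusted p = 0.0730) and in 7 of 8 fits with 1 library left out. Those were the fits without rats 2, 3, 4 or 5 of 6 hours (-3.83, -3.68, -3.98 and -3.63, adjusted p = 0.0722, 0.0676, 0.0619 and 0.0857) and without rats 1, 3 or 4 of 2 days (-3.50, -3.46 and -3.42, adjusted p = 0.11, 0.11 and 0.0974). Without rat 5 of 2 days the falls were -5.84 for Myod1 (adjusted p = 0.0139) and -4.83 for Myog (adjusted p = 0.0383).

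By 10 days LPI muscle held 10.0, 31.9, 4.21 and 2.17 CPM of Myod1 and 36.6, 33.9, 7.22 and 1.22 CPM of Myog in rats 4 to 7. Rats 4 and 5 were high and rats 6 and 7 low, and the range covered most of that of 0 day. Changes from 0 day were 0.64 ± 1.24 for Myod1 (adjusted p = 0.866) and 0.68 ± 1.25 for Myog (adjusted p = 0.858), with 0.32% of all genes called. Without rat 1 of 0 day they were 0.22 and 0.26 (adjusted p = 0.961 and 0.955). With all libraries and the gene-length trend as covariate both signs turned (-3.00 and -2.07, adjusted p = 0.425 and 0.661). That trend was 0.0838 to 0.284 in the libraries of 10 days and -0.166 to 0.0388 in those of 0 day. It thus went largely with time, and this fit cannot separate them well. The sign of Myod1 also turned without rat 5 of 10 days (-0.70, adjusted p = 0.855). From 2 to 10 days the changes were 1.65 ± 1.27 for Myod1 (adjusted p = 0.347) and 1.26 ± 1.26 for Myog (adjusted p = 0.483), with 27.9% called. Without rat 5 of 2 days these became 3.75 (adjusted p = 0.0682) and 2.60 (adjusted p = 0.204), and without rat 5 of 10 days 0.31 and 0.74 (adjusted p = 0.883 and 0.734). By mean CPM the LPI order was 6 hours, 10 days, 0 day and 2 days for both genes. Among neighbours, 10 days against 0 day and 2 days against 0 day did not differ beyond their spread, and the libraries of 6 hours and 10 days overlapped.

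The models were also compared directly. At 0 day SMIR muscle exceeded LPI muscle by a log2 difference of 1.88 ± 0.95 in Myod1 (adjusted p = 0.103) and 1.84 ± 0.96 in Myog (adjusted p = 0.115), neither a call, while 47.4% of all genes were called. Without rat 1 of LPI the differences were 1.41 and 1.35 (adjusted p = 0.198 and 0.214). Without rat 4 of LPI the Myod1 difference became a call (2.91, adjusted p = 0.0275). The incision site, the animals and any batch cannot be told apart from the model.

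The change from 0 day did not differ between models by the test at any of the 3 shared times. At 6 hours the SMIR change minus the LPI change was -1.25 ± 1.30 for Myod1 (adjusted p = 0.625) and 0.07 ± 1.32 for Myog (adjusted p = 1.00), with 5.02% of all genes called. At 2 days, when Myog was high in SMIR and low in 3 of 4 LPI libraries, the difference was 2.01 ± 1.33 for Myog (adjusted p = 0.310) and 1.13 ± 1.31 for Myod1 (adjusted p = 0.589), with 13.0% called. Without rat 5 of LPI 2 days the differences were 3.46 for Myog (adjusted p = 0.0958) and 3.33 for Myod1 (adjusted p = 0.0894), and without rat 4 of LPI 0 day 1.31 and 0.10 (adjusted p = 0.538 and 0.993). At 10 days it was -1.19 ± 1.31 for Myod1 (adjusted p = 0.567) and -0.18 ± 1.32 for Myog (adjusted p = 0.961), with 14.7% called. Without rat 1 of LPI 0 day the Myog differences at the 3 times were 0.60, 2.52 and 0.29 and the Myod1 differences -0.74, 1.61 and -0.73, none a call. Standard errors above 1 on the log2 scale leave room for differences of several-fold in either direction.

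Myog exceeded Myod1 per gene length in the mean of each of the 9 muscle groups. On the FPKM scale, which divides by gene length, SMIR means were 7.89 for Myod1 and 15.8 for Myog at 0 day, and 24.7 and 138 at 6 hours. The Myog mean was 2.00 times the Myod1 mean at 0 day, 5.57 times at 6 hours, 5.07 times at 2 days, 4.20 times at 10 days and 1.96 times at 32 days. In LPI the same ratio of FPKM means lay between 2.08 and 2.73 at all 4 times.

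The balance of the genes within a library needs no scaling. The log2 ratio of Myog to Myod1 counts averaged 0.59 ± 0.50 in SMIR muscle at 0 day and 2.11 ± 0.67 at 6 hours, 1.89 ± 0.80 at 2 days and 1.81 ± 0.54 at 10 days (SD, n = 4). At each of these 3 times all 4 libraries lay above all 4 of 0 day, with differences of 1.53, 1.30 and 1.22. Each exact permutation test gave p = 0.0286, the smallest that 4 against 4 allows, and 0.0667 after adjustment over the 7 comparisons, so none passed 0.05. Without rat 1 of 0 day, the one library of that group with less Myog than Myod1, the differences were 1.28, 1.06 and 0.98 (exact p = 0.0571 each, not adjusted), and without rat 6 of 2 days the difference at 2 days was 0.90 (exact p = 0.0571, not adjusted). At 32 days the mean ratio was 0.45 ± 0.66, a difference of -0.14 (exact p = 0.686, adjusted 0.771).

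In LPI muscle the ratio showed no such separation. It averaged 0.28 ± 0.90 at 0 day, where rat 1 enters as 0 only through the added 0.5 counts, then 0.66 ± 1.09 at 6 hours, 1.56 ± 1.04 at 2 days and 0.48 ± 1.14 at 10 days. The differences from 0 day were 0.38, 1.28 and 0.20, with exact permutation p = 0.571, 0.114 and 0.771 (adjusted 0.771, 0.2 and 0.771). Without rat 1 they were 0.29, 1.19 and 0.10. Without rat 4 of 10 days or rat 3 of 0 day the sign at 10 days turned (-0.27 and -0.13).

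**Figure D3:**
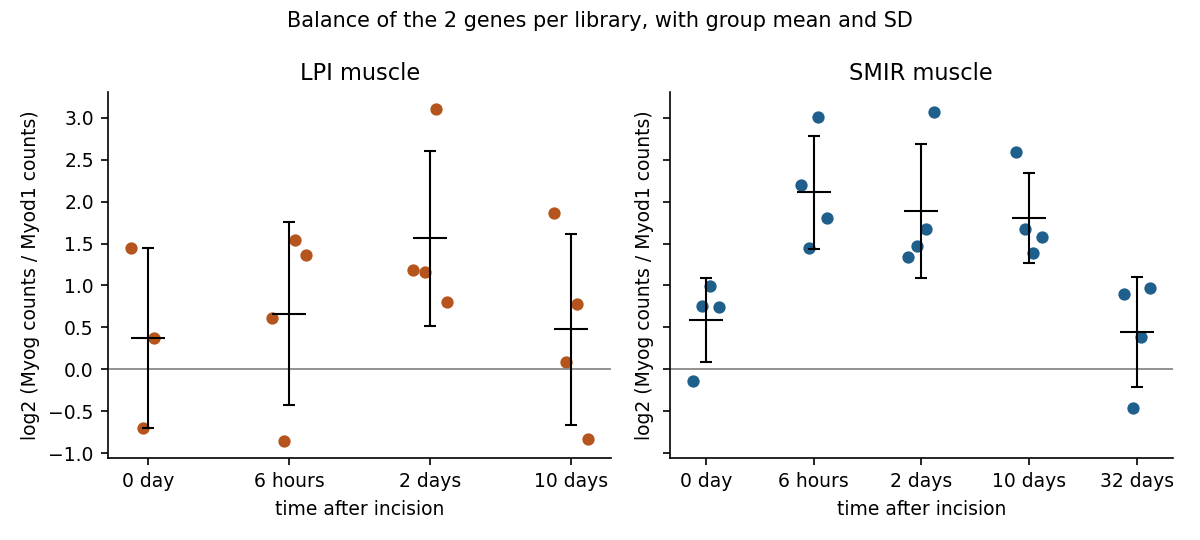
Log2 ratio of Myog to Myod1 counts (vertical axis) per muscle library by time after incision; points are libraries, bars the mean and SD, and rat 1 of LPI 0 day is not drawn since it had no counts of either gene. In SMIR the libraries of 6 hours, 2 days and 10 days lie at 1.34 or higher and those of 0 day at 0.99 or lower, while LPI groups overlap.

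Muscle-enriched genes were lower at 2 days in both models and at 10 days in SMIR. The list of 104 genes without Myod1 and Myog was chosen on the 0 day libraries, which favours high 0 day values, so its falls are a description. In SMIR muscle at 2 days 75 of 104 fell and 0 rose, with a median log2 change of -2.52 against 0.09 for all genes, of which 3794 of 16506 were called lower. At 10 days 61 fell and 2 rose (median -1.71), beside 3450 of all 16506 called lower. At 6 hours 4 fell and 1 rose (median -0.66), beside 2319 lower and 2916 higher of all 16506. In LPI muscle at 2 days 92 of 104 fell and 0 rose (median -5.01 against 0.01 for all genes, of which 3039 of 16246 were called lower). From 6 hours to 2 days in LPI, 96 of 104 fell (median -5.24), beside 2846 of all 16246. With total-count scaling the falls numbered 55 with 1 rise in SMIR at 2 days (median -1.60), 43 with 4 rises at 10 days (median -1.03), and 90 in LPI at 2 days (median -4.84). On that scaling the median gene of SMIR muscle rose at both times, as given above. Counts of all genes called on it are not given here. The share of counts in the list was 7.68% to 9.56% in SMIR at 0 day and 1.37% to 4.19% at 2 days, and 0.0439% to 0.284% in LPI at 2 days. Rat 5, the LPI library of 2 days with the highest Myod1 and Myog, was also the one with the highest share.

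Set against that share, both genes had higher values after incision in both models. The measure is log2 of a gene's CPM over the summed CPM of the list, and the difference is from the mean of 0 day. Because the list was chosen for high values in the 0 day libraries, the choice itself favours a higher ratio later, and no test is given. In SMIR muscle the difference was 2.15 at 6 hours and 2.98 at 2 days for Myod1, and 3.68, 4.28 and 2.44 at 6 hours, 2 days and 10 days for Myog. In LPI muscle it was 3.35 at 6 hours and 3.97 at 2 days for Myod1, and 3.74 and 5.26 for Myog. In each of these 9 cases all 4 later libraries had a higher ratio than all 4 of 0 day. The share of all genes that separate in this way was not counted, so the 9 cases cannot be read as particular to these genes. A higher ratio over a list that fell does not show that either gene's own level rose.

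The remaining 5 groups overlapped with 0 day. The difference at 10 days was 1.22 for Myod1 in SMIR, and 2.19 for Myod1 and 2.39 for Myog in LPI. At 32 days in SMIR it was 0.47 for Myod1 and 0.33 for Myog. Without rat 1 of LPI 0 day the LPI differences for Myod1 and Myog were 2.53 and 2.82 at 6 hours, and 3.15 and 4.34 at 2 days. A list chosen without rat 4 of SMIR DRG 0 day held 180 genes and put Myod1 at 10 days in SMIR at 1.53. A stricter list of 9 genes, at 16 times each other tissue, gave differences of the same sign in the 9 cases and a negative one for Myod1 at 10 days in SMIR (-0.71). Under that list the separation was partly lost. Myod1 at 6 hours and 2 days in both models, and Myog at 6 hours and 10 days in SMIR, then overlapped with 0 day.

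**Figure D4:**
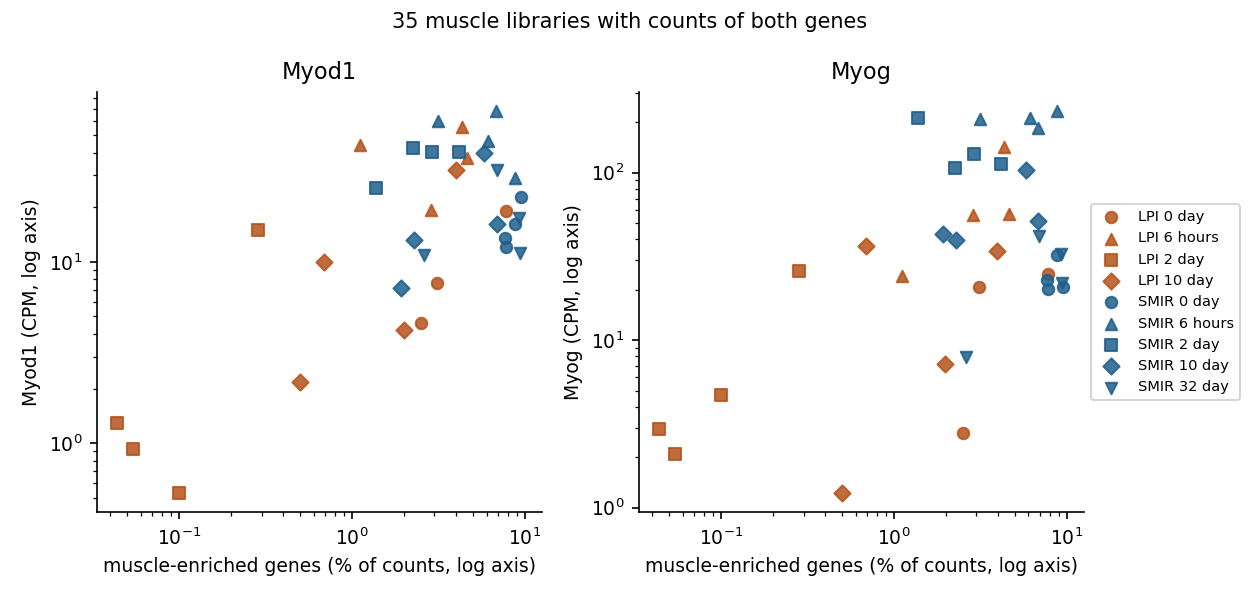
Level of Myod1 (left) and Myog (right) in CPM against the share of counts in muscle-enriched genes, both on log axes, for the 35 muscle libraries with counts of both genes; colour gives the model and marker shape the time. LPI libraries of 2 days lie at shares of 0.284% or less with 2.11 to 26.0 CPM of Myog, while SMIR libraries of 2 days lie at 1.37% to 4.19% with 107 to 213 CPM of Myog.

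Outside muscle the genes were nearly undetected. The rule that kept the genes used no LPI libraries, but the genes were chosen with earlier results of these data known. The tests here therefore describe the contrast. In LPI mean Myod1 was 15.8 CPM in muscle against 0 counts in 16 skin libraries. That level was at least 2156-fold higher against a floor of 3 counts over the group. Mean Myog was 27.7 CPM in LPI muscle and 0.172 CPM in LPI skin, 161-fold apart, with 2 of 16 skin libraries holding any count and rat 4 of 10 days the highest at 2.33 CPM. The log2 difference of muscle over skin was 11.25 ± 1.07 for Myod1 (adjusted p = 2.78e-10), a fitted value against a group at 0, and 10.26 ± 1.26 for Myog (adjusted p = 2.19e-07). Of all genes, 38.5% were called higher in muscle than in skin, and both genes' differences exceeded those of 99.8% of all genes.

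Against DRG the means differed 116-fold for Myod1 and 257-fold for Myog in LPI (log2 differences 6.70 ± 0.73 and 10.43 ± 1.25, adjusted p = 2.73e-09 and 1.11e-07), where 41.1% of all genes were called higher in muscle. Myod1 had counts in 9 of 16 LPI DRG libraries, at most 0.581 CPM, and Myog in 2 of 16, at most 1.43 CPM. Myod1 thus had counts in more DRG libraries than skin libraries (0 of 36). In SMIR DRG Myod1 was counted in 11 of 20 libraries and Myog in 10 of 20.

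One SMIR DRG library went against its label. Rat 4 of 0 day held 3.19 CPM of Myod1 and 8.79 CPM of Myog, the highest of any DRG library. Its share of counts in muscle-enriched genes was 3.37%, within the range of muscle libraries, and its share in 837 DRG-enriched genes was 3.34%, against 14.1% to 19.99% in the other SMIR DRG libraries. This library was itself among the 0 day DRG libraries used to choose the muscle-enriched list, which keeps genes high in it off that list. Without Myod1 and Myog the list held 104 genes, and 180 when chosen without this library. Rat 1 of 6 hours came next in Myog with 2.98 CPM and a muscle-enriched share of 1.05%. The part of muscle RNA in these DRG levels was not tested.

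Across muscle libraries the genes tracked each other. Pearson's r of log2(CPM + 0.5) between Myod1 and Myog was 0.91 over 16 LPI libraries, 0.88 without rat 1 of 0 day, and 0.79 over 20 SMIR libraries; these points share library, depth and muscle content. With 15739 genes ranked by the lower of the r values in the models, Myog was number 3 for Myod1 and Myod1 was number 17 for Myog. The gene most like Myod1 was ENSRNOG00000060335 (r = 0.84 in LPI and 0.80 in SMIR), and the gene most like Myog was ENSRNOG00000005608 (0.87 and 0.92). Neither of these was on the muscle-enriched list. Of the 50 genes most like each, 4 for Myod1 and 3 for Myog were on that list, the partner gene being 1 of each, and the list held 0.667% of the genes compared.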

How the data were processed

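For each model and tissue the authors deposited a table of raw read counts and a table of FPKM values (6 of each kind) over the same 32623 Ensembl genes. The deposited FPKM values were used for levels per gene length and for 1 alternative. FastQC 0.11.2, STAR and StringTie and the builds rn6 and hg38 are named, without roles, per the submitters' processing notes. Libraries are strand-specific, per the labels' protocols. Counting settings, annotation release and the treatment of reads shared between genes are not given in the sources used here.

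Counts were tested with edgeR 4.0.16 (TMM, filterByExpr, robust quasi-likelihood fits, all muscle libraries of a model together, or all muscle libraries for comparisons between models, or all LPI libraries for comparisons between tissues). Log2 ratios were compared with two-sided exact permutation tests after adding 0.5 counts. Alternatives used DESeq2 1.42.0 and limma 3.58.1 in R 4.3.3. The edgeR fit was tested on simulated data for 6 hours against 0 day in each model. The permutation test planned for levels per muscle-enriched level is not reported, since the list was chosen on the 0 day libraries it would compare with. Both genes and all lists were chosen with earlier results of these data known, and total-count scaling, a list from SMIR 0 day alone and a list without 1 DRG library were chosen after seeing the data.

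The named genes are Myod1, Myog and, for each, the gene most like it. The 6 fixed lists of related genes and the cell type markers could not be applied, because the reference table paired 0 of 47357 genes with an Ensembl ID. The tissues were therefore checked only by the tissue-enriched lists. No gene sequence was used here.

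Column names give model, time code, a number read as the rat and tissue, and were assigned to groups. Among the 162 same-group pairs of libraries, none was close to sampling noise: counts differed with a chi-square of at least 11.3 per degree of freedom. Same-numbered libraries of different times were checked for correlated deviations, with r above 0.1 in every one of at least 3 pairs. That held for LPI 6 hours with 2 days (r 0.287 to 0.444) and SMIR 10 days with 32 days (0.229 to 0.437). The series counts 36 rats and 108 tissue samples, and each column number recurs in the 3 tissues of its group. By that count each rat gave a single time, so same-numbered libraries of different times would be different rats. The count does not settle whether libraries hold single rats or the pools that the protocol mentions. Blocks on the column number over the times of a model are therefore a check and no pairing. Same-numbered tissues were taken as 1 rat in the blocked tissue fits, although correlations with muscle were -0.05 to 0.24 for skin and -0.24 to 0.24 for DRG in LPI. Floors of 3 counts cover counting error only.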

Additional observations from a re-analysis of the deposited data

Results flagged for a closer look

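In each group of 4 libraries, a library was marked where its gap to the nearest other exceeded Dixon's 95% critical share of the group's range, which chance gives in about 1 in 20 groups. In all, 37 groups were looked at and 11 values were marked. Where a single library of a group had counts, it was marked by construction and that chance rate does not apply. In LPI muscle at 2 days rat 5 was high in Myod1 (14.9 CPM) and Myog (26.0 CPM). In SMIR muscle at 2 days rat 6 was low in Myod1 (25.5 CPM, the others 40.4 to 42.2 CPM). In SMIR skin, where most libraries had 0 counts, Myog was high in rat 4 of 0 day (0.301 CPM), rat 6 of 2 days (0.632 CPM) and rat 5 of 10 days (0.102 CPM), each the only library of its group with counts. In SMIR DRG, Myog was high in rat 4 of 0 day (8.79 CPM), rat 1 of 6 hours (2.98 CPM), rat 3 of 2 days (0.212 CPM), rat 6 of 10 days (1.02 CPM) and rat 1 of 32 days (0.271 CPM). Those of 2 and 32 days were the only libraries of their groups with Myog counts.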

How the results depend on the processing

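Values are log2 changes or differences, adjusted p values follow edgeR unless another tool is named, and where no cause is named the cause was not tested. The rise of Myog in SMIR muscle at 6 hours and the excess of both genes in LPI muscle over skin and DRG kept direction and call under every alternative run. Depth limits mainly skin and DRG, where most libraries held few or 0 counts of either gene.

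With a gene-length trend as covariate, the LPI changes at 6 hours became calls (Myod1 3.48, Myog 3.53), as did the Myog change from 6 hours to 2 days (-4.57). The 10 day LPI changes turned to -3.00 and -2.07 and those from 2 to 10 days to -0.84 and -1.02. The trend did not overlap between 0 day and 10 days in LPI, nor between 0 day and 2 or 10 days in SMIR. It thus went largely with time in those comparisons. In SMIR, Myod1 turned to 0.33 at 10 days, 0.18 at 32 days and -0.14 from 10 to 32 days, and the Myog fall from 6 hours to 2 days lost its call (-1.08).

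With limma on log2(FPKM + 1), calls were gained in LPI at 6 hours (2.42 and 2.93) and for Myog from 6 hours to 2 days (-3.05). In SMIR they were gained for Myod1 at 2 days (1.13) and for Myog at 10 days (1.18), from 2 to 10 days (-1.28) and from 10 to 32 days (-1.24), and lost for Myog from 6 hours to 2 days (-0.61). Signs turned for Myod1 at 10 and 32 days (0.030 and 0.061) and Myog at 32 days (-0.058).

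Total-count scaling lost the call, not the direction, of Myod1 in LPI from 6 hours to 2 days (-3.14, adjusted p = 0.0730) and of Myog in SMIR (-0.58, adjusted p = 0.238), and gave calls in SMIR for Myod1 at 2 days (1.20) and Myog at 10 days (1.31) and from 10 to 32 days (-1.19). Signs turned for Myod1 at 10 days (0.24), 32 days (0.15) and from 10 to 32 days (-0.090), and for the difference between models in Myog at 10 days (0.60). RLE scaling (-3.71, adjusted p = 0.0514) and no filter on low counts (-3.78, adjusted p = 0.0729) left the LPI Myod1 change nearly as large and just missed the threshold. DESeq2 added calls from 6 hours to 2 days for Myog in LPI (-3.47) and Myod1 in SMIR (-1.28), as did fits of the compared groups alone (-3.47 and -1.33), which put Myod1 at 32 days at 0.0022.

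With the column number as block, the call was lost for Myod1 in LPI from 6 hours to 2 days (-4.05). In SMIR calls were lost for Myod1 at 6 hours (1.44, adjusted p = 0.0508), Myog at 2 days (1.45, adjusted p = 0.0766) and Myog from 6 hours to 2 days (-1.57, adjusted p = 0.0785). Myog at 32 days in SMIR turned to -0.27. Same-numbered libraries of different times were not taken as paired. The block changed no other call.

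Per muscle-enriched level, the list of 9 genes at 16 times gave for Myod1 2.40 and 4.25 in LPI at 6 hours and 2 days and 2.43, 4.29, -0.71 and -0.16 in SMIR at 6 hours, 2, 10 and 32 days. For Myog it gave 2.79 and 5.53 in LPI and 3.96, 5.59, 0.51 and -0.30 in SMIR. Under this list only Myog in LPI at 6 hours and 2 days and in SMIR at 2 days had no overlap with 0 day. Myod1 at 10 days in SMIR had no overlap with 0 day under the list at 4 times (1.52), the list from SMIR 0 day alone (1.26) and that without the DRG library of rat 4 (1.53).

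Leaving out 1 library at a time gave these ranges. In LPI, Myod1 at 2 days -3.15 to 0.0075 and Myog -1.94 to 0.12, Myod1 at 10 days -0.70 to 1.62, and from 6 hours to 2 days -5.84 to -3.42 for Myod1 and -4.83 to -3.06 for Myog, and from 2 to 10 days 0.31 to 3.75 for Myod1 and 0.74 to 2.60 for Myog. In SMIR, Myod1 at 6 hours 1.34 to 1.77, at 32 days -0.53 to 0.28 and from 10 to 32 days -0.030 to 1.19, and Myog at 32 days -0.32 to 0.39 and from 6 hours to 2 days -1.69 to -1.35. Between models, Myog at 6 hours -0.63 to 0.60, at 2 days 1.31 to 3.46 and at 10 days -0.89 to 0.33, Myod1 at 2 days 0.10 to 3.33 and at 10 days -2.22 to 0.12, and Myod1 at 0 day 1.41 to 2.91. The Myog to Myod1 ratio ranged from -0.27 to 0.63 in LPI at 10 days and, in SMIR, 1.23 to 1.75 at 6 hours, 0.90 to 1.48 at 2 days, 0.96 to 1.36 at 10 days and -0.38 to 0.16 at 32 days. Per muscle-enriched level, Myod1 ranged from 3.15 to 4.59 and 1.37 to 2.67 in LPI at 2 and 10 days and 1.75 to 2.59 and 1.00 to 1.51 in SMIR at 6 hours and 10 days, and Myog 2.82 to 4.45 in LPI at 6 hours and 2.25 to 2.78 in SMIR at 10 days.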
